A study of Homo sapiens with 6 samples.

Results

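The MYC family and its dimerisation partners form a small network of transcription factors, and 10 of its genes were measured here among 19923 protein-coding genes. The members were the MYC paralogues MYCN, MYC and MYCL, their common partner MAX, and the MAX-binding repressors MXD1, MXD3, MXD4, MXI1, MNT and MGA. They were found by gene symbol in the count tables. All 10 were present, and 9 had counts high enough to be tested. The libraries came from Kelly cells, an established human neuroblastoma line labelled as MYCN-amplified and of WT genotype. Kelly cells received a control siRNA (siControl, 3 libraries) or an siRNA against METTL3 (siMETTL3, 3 libraries) with a lipid reagent, and RNA was taken after 72 hours. METTL3 is the enzyme that methylates adenosines in mRNA to N6-methyladenosine (m6A). The file headers name 1 siRNA against METTL3, so the comparison rests on 1 cell line and 1 siRNA, and the labels do not say whether libraries of a group came from separate cultures. The p-values therefore measure the spread between these libraries, which may be technical.

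MYC proteins do not bind DNA alone. They pair with MAX and recruit coactivators to E-box sequences, most often CACGTG, in the promoters of genes for growth, ribosome production and the cell cycle. MXD proteins, MXI1 and MNT pair with the same MAX and recruit the SIN3-HDAC corepressor to the same sites, and MGA pairs with MAX inside a Polycomb-type complex. A parallel branch uses MLX as the common partner and MLXIP (MondoA) and MLXIPL (ChREBP) as sensors of glucose. In neuroblastoma, amplification of MYCN marks high-risk disease, and the N-Myc protein takes the place that c-Myc has in many other tumours.

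Promoter sequences are shown for 3 of the members that changed and whose window holds a motif of the network (the E-box) or of E2F factors, since the E2F6 protein is a partner of MGA. The promoter windows were those of RefSeq (GRCh38.p14), from 250 bases before to 50 bases after each annotated start, and 9 of the 10 members had an entry, with 14 windows in all. The first line below gives the 250 bases before the MYCN start (chr2:15940300-15940549, plus strand), with capitals for an E2F-type run 176 to 165 bases before the start. The other lines give the surroundings of the E-box CACGTG, in capitals, before the starts of MXD4 (chr4:2262315-2262359, minus strand, E-box 238 to 233 bases before the start) and MNT (chr17:2401221-2401280, minus strand, E-box 193 to 188 bases before the start).
MYCN: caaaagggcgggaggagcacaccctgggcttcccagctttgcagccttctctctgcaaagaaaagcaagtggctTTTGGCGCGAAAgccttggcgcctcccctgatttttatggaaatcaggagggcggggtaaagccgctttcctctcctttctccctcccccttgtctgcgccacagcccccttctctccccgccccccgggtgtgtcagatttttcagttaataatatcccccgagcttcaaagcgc
MXD4: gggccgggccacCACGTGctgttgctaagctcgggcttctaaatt
MNT: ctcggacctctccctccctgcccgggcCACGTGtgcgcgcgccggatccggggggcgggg
The motifs were searched on both strands. CACGTG was present in 7.26% of all 35116 windows and, among the members, in those of MXD4 and MNT. The run before MYCN joins a match to TTTGGCGC, which 0.652% of all windows held, with an overlapping match to TTTCGCGC on the other strand, which 0.515% held. MGA had a match to TTTGGCGC as well. TTTCCCGC (1.63% of all windows) and TTTGCCGC (0.607%) matched none of the members' windows, and 3.32% of all windows held at least 1 of the 4 E2F-type motifs. A match is a description of letters in a window and not of binding.

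The letters GGACT, the usual core of the m6A consensus, were counted in the RNA-sense sequence of each canonical transcript (GENCODE release 44). MYCN had 3, all in the coding sequence, and MXD4 had 2, both in the 3′ untranslated part of exon 6. Each is shown with 8 bases on either side, GGACT in capitals, because these are the members with the firmest change in each direction.
MYCN, chr2:15942357-15942377, exon 2: gcctggggGGACTgggtggcc
MYCN, chr2:15942395-15942415, exon 2: atcctccaGGACTgcatgtgg
MYCN, chr2:15946079-15946099, exon 3: acacgctcGGACTtgctagac
MXD4, chr4:2249887-2249907, minus strand: ctctggtaGGACTgtcagacg
MXD4, chr4:2248247-2248267, minus strand: tcccacgtGGACTgggaggca
Over its 2613-base transcript, MYCN held 1.15 GGACT per kb. MXD4 held 0.517 per kb over 3871 bases. The 10 members ranged from 0.3604 (MXD1) to 2.81 per kb (MXD3), with a median of 1.25, and the median over 14590 tested genes was 0.929 per kb, with quartiles of 0.563 and 1.39. At least 1 GGACT was present in 91.3% of these genes. Methylation itself was not measured in these libraries.

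The libraries held between 15430000 (siControl 3) and 21565013 counts, and 15311 genes were tested with edgeR's quasi-likelihood test. Levels are given as TMM-scaled CPM (a count divided by the scaled library size), as mean ± SD over 3 libraries, and a gene was called at a Benjamini-Hochberg adjusted p (FDR) under 0.05 over all tested genes. METTL3 had 53.5, 52.8 and 56.2 CPM in siControl and 32.99, 31.8 and 34.3 CPM in siMETTL3, so its RNA was lowered but present in each siMETTL3 library (log2 fold change -0.71, SE 0.070, FDR 4.68e-06). TOX4, which was itself lower (-0.20, FDR 0.0431), overlaps 7.90% of the METTL3 span, with 1038 of its 4514 transcript bases inside it. Reads there were counted for both genes, so the METTL3 values include some that may belong to TOX4. siControl 3 was the shallowest library. The background was broad, with 37.8% of all tested genes called (18.6% higher and 19.2% lower) and with groups that did not overlap in 49.9% of them. The median log2 fold change over all tested genes was -0.0021. Of the noradrenergic neuroblastoma markers, all 10 were tested, and 5 were higher (among them GATA3 and DBH) and 2 lower. The 2 lower ones were ISL1 (-1.18, FDR 6.06e-08) and CHGB (-0.56, FDR 2.42e-05). The summed level of all 10 was 3360 to 3585 CPM in siControl and 4368 to 4730 CPM in siMETTL3. The 6 blood markers summed to at most 0.695 CPM in any library and none passed the filter on low counts. The 7 fibroblast and mesenchymal markers summed to 124.9 to 140.2 CPM in siControl and 111.1 to 119.4 CPM in siMETTL3, most of it TWIST1, which fell (125.3 ± 7.72 to 102.5 ± 3.83 CPM, FDR 0.00239). Of the other fibroblast and mesenchymal markers, COL1A1 (0.86, FDR 0.0200) and PRRX1 (0.90, FDR 0.0103) rose and 1 did not pass the test, while 3 were too low to test. The 6 epithelial and endothelial markers summed to 11.3 to 12.8 and 14.6 to 15.3 CPM. The part of these shifts in the values below was not tested, and in bulk RNA fewer cells of a type and less RNA per cell cannot be told apart.

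Among the 9 tested members, MYCN, MNT and MGA rose, MXD3 and MXD4 fell, and MYCL, MAX, MXD1 and MXI1 did not pass the test. The 5 called members compare with 37.8% of all tested genes. In 6 members, MYCN, MYCL, MXD3, MXD4, MNT and MGA, the siControl and siMETTL3 libraries did not overlap (3 higher and 3 lower in siMETTL3), against 49.9% of all tested genes (24.8% higher and 25.1% lower). Over all alternatives, 2 to 3 members were higher and 1 to 3 lower. The count of 2 lower members went down to 1, MXD4, when the counts of overlapping genes were taken off.

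**Figure D1:**
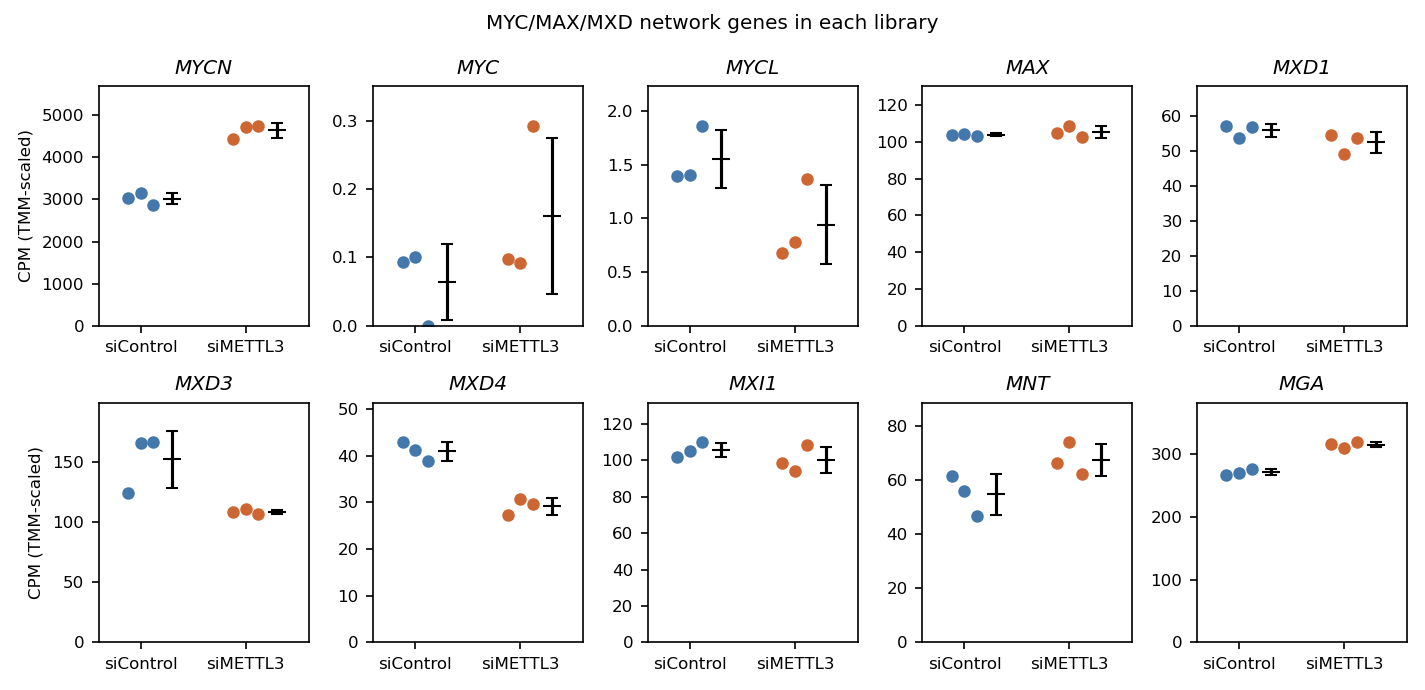
Level of each member in every library, in CPM on a linear axis that starts at 0, with 1 point per library and a bar for the mean and SD of each group (3 libraries each). MYCN sits between 2879.9 and 3147 CPM in siControl and between 4443 and 4743 CPM in siMETTL3, while MAX has means of 103.7 and 105.2 CPM and MYC is near 0.

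MYCN (chr2:15940550-15947007, plus strand) encodes N-Myc, the driver oncoprotein of this type of tumour. Its levels were 3036, 3147 and 2879.9 CPM in siControl and 4443, 4726 and 4743 CPM in siMETTL3. The lowest siMETTL3 library exceeded the highest siControl library by a wide margin. The mean rose from 3021 ± 134 to 4638 ± 169 CPM, 1.54-fold (log2 fold change 0.62, SE 0.061, FDR 5.17e-06). MYCN alone took 0.304%, 0.313% and 0.281% of all counts in siControl and 0.447%, 0.477% and 0.478% in siMETTL3, where the exact binomial 95% intervals cover counting error only and were at most 0.481% (siMETTL3 3) and at least 0.279% (siControl 3). It had the highest count of all genes in 5 of the 6 libraries and ranked 3 in siControl 3. Under every other setting and with each library left out, the log2 fold change lay between 0.47 and 0.65 and the FDR was at most 0.000364. The antisense transcript MYCNOS overlaps 26.3% of the MYCN span, with 275 of its exonic bases inside it. The counting used no strand, so its reads and those of MYCN cannot be told apart.

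The other MYC paralogues were scarce. MYC, which encodes c-Myc, had 2, 2 and 0 counts in siControl and 2, 2 and 6 in siMETTL3, too few to test. A floor of 3 counts corresponded to 0.138 to 0.199 CPM per library, and no fold is given. MYCL, which encodes L-Myc, had 30, 28 and 28 counts in siControl and 14, 17 and 28 in siMETTL3. In CPM these were 1.39, 1.40 and 1.86 against 0.680, 0.781 and 1.36, so the groups did not overlap, but the lowest siControl and the highest siMETTL3 library were close. MYCL did not pass the test (log2 fold change -0.70, SE 0.35, FDR 0.130). It passed only with a correction for GC content and length (a fitted offset) combined with the replicate block (-0.92, FDR 0.0429). MYCL-AS1, an antisense transcript whose 785 exonic bases all lie inside the MYCL span, would be counted with it. Of the summed level of the 3 paralogues per kb of transcript, MYCN made up 99.96% ± 0.00703 in siControl and 99.98% ± 0.00716 in siMETTL3.

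MAX (chr14:65006174-65102695, minus strand) encodes the obligate partner of MYC, MXD, MNT and MGA proteins. Its levels were 103.8, 104.5 and 102.9 CPM in siControl and 104.6, 108.5 and 102.4 CPM in siMETTL3. The groups overlapped, and MAX did not pass the test (log2 fold change 0.020, SE 0.055, FDR 0.807). Its span shares 58.5% of its length with FNTB on the other strand, a farnesyltransferase subunit gene, and 2443 of the 2711 bases of the FNTB transcript lie inside the MAX span. FNTB had 54.8 ± 0.837 CPM in siControl and 52.0 ± 3.45 CPM in siMETTL3 (-0.076, FDR 0.410). Taking off the FNTB counts gives a lower limit for MAX with respect to FNTB only. This left 48.0, 50.3 and 48.4 CPM in siControl and 54.1, 52.6 and 52.8 CPM in siMETTL3. These values did not overlap but did not pass the test (0.12, SE 0.063, FDR 0.149), and they were 47.1% and 50.5% of the MAX count.

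MGA (chr15:41621224-41773081, plus strand) encodes a large MAX-binding protein that recruits the Polycomb complex PRC1.6 and represses germ-cell genes in many cell types. It had 265.98, 269.7 and 275.8 CPM in siControl and 315.3, 309.5 and 317.8 CPM in siMETTL3. The lowest siMETTL3 library stood well above the highest siControl library. MGA rose from 270.5 ± 4.94 to 314 ± 4.23 CPM (log2 fold change 0.22, SE 0.052, FDR 0.00510). With an offset for intron length the call was lost (0.090, FDR 0.181). Non-coding genes and a processed pseudogene overlap the MGA span, the largest overlap being 6.38% of it. Their reads would be counted with those of MGA.

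MNT (chr17:2384073-2401104, minus strand) encodes a widely expressed repressor that competes with MYC for MAX. Its levels were 61.4, 56.0 and 46.5 CPM in siControl and 66.2, 73.8 and 62.3 CPM in siMETTL3. The groups came close at 61.4 and 62.3 CPM but did not overlap. MNT rose from 54.6 ± 7.58 to 67.4 ± 5.84 CPM (log2 fold change 0.30, SE 0.096, FDR 0.0267). A long non-coding gene on the other strand overlaps 10.7% of the MNT span, with all its 1065 exonic bases inside. Its reads would be counted with those of MNT. MNT lost its call under more alternatives than the other 4 called members. The call was lost without siControl 2 (0.32, FDR 0.0663), without siMETTL3 1 (0.31, FDR 0.0684), without siMETTL3 2 (0.23, FDR 0.133), and with the offset for GC content and length (0.085, FDR 0.319).

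MXD4 (chr4:2247432-2262109, minus strand), the only member besides MNT with an E-box in its RefSeq window, encodes an MXD repressor found mostly in differentiating and resting cells. It had 42.8, 41.2 and 38.8 CPM in siControl and 27.2, 30.7 and 29.7 CPM in siMETTL3. Every siMETTL3 library lay below every siControl library. MXD4 fell from 40.95 ± 2.02 to 29.2 ± 1.80 CPM (log2 fold change -0.49, SE 0.079, FDR 0.000308). No other gene of the tables overlaps its span, and over every setting and each library left out the log2 fold change lay between -0.67 and -0.44 with an FDR of at most 0.00425.

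MXD3 (chr5:177301461-177312757, minus strand) encodes the MXD protein that is made in proliferating cells. Its counts gave 124.3, 165.3 and 165.9 CPM in siControl and 108.3, 110.3 and 107.0 CPM in siMETTL3, a fall from 152 ± 23.8 to 108.5 ± 1.69 CPM (log2 fold change -0.48, SE 0.096, FDR 0.00229). The whole span of PRELID1 (chr5:177303799-177306949, plus strand), a gene for mitochondrial lipid transfer, lies inside the span of MXD3, so each read counted for PRELID1 was also counted for MXD3. PRELID1 had 91.9, 129.5 and 126.9 CPM in siControl and 77.6, 79.8 and 78.3 CPM in siMETTL3 and itself fell (-0.56, FDR 0.00342). siControl 1 was the lowest siControl library in both genes.

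With the PRELID1 counts taken off, 23.6% of the MXD3 count was left in siControl and 27.6% in siMETTL3. These were 32.4, 35.7 and 39.0 CPM in siControl and 30.7, 30.5 and 28.6 CPM in siMETTL3. The groups did not overlap, and the fall was smaller (35.7 ± 3.33 to 29.9 ± 1.13 CPM, -0.25, SE 0.085, FDR 0.0322). RAB24, a small GTPase gene at the other end, has 1325 of its 1588 transcript bases inside the MXD3 span and also fell (-0.41, FDR 0.00518). With RAB24 taken off as well, the lower limit for MXD3 was 14.7, 17.0 and 18.2 CPM in siControl and 16.3, 16.1 and 14.5 CPM in siMETTL3. At this limit the groups overlapped and the call was lost (-0.082, SE 0.109, FDR 0.595). The fall of the deposited MXD3 count is thus shared with reads that lie over PRELID1 and RAB24, and how much of it belongs to MXD3 transcripts cannot be told apart.

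**Figure D2:**
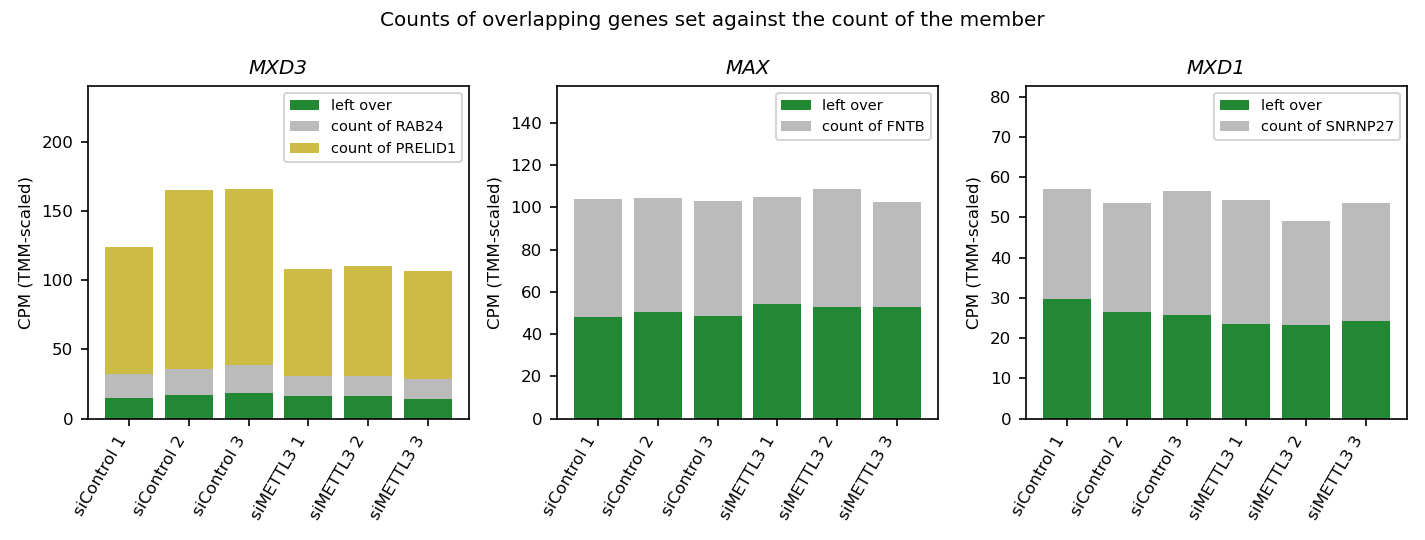
Counts of MXD3, MAX and MXD1 in each library, with each bar starting at 0 and divided into the count of the genes that overlap the member and the count left for the member. PRELID1 and RAB24 fill most of each MXD3 bar, with 11.0% left in siControl and 14.4% in siMETTL3, and FNTB and SNRNP27 fill about as much of the MAX and MXD1 bars as is left.

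MXD1 and MXI1, both MAX-binding repressors that compete with MYC, did not pass the test. MXD1 (chr2:69897688-69942945, plus strand) had 57.0, 53.7 and 56.6 CPM in siControl and 54.4, 49.0 and 53.6 CPM in siMETTL3, with overlap between the groups (log2 fold change -0.092, SE 0.067, FDR 0.307). The span of SNRNP27, a splicing factor gene on the same strand, covers 17.4% of the MXD1 span, and 1048 of its 1425 transcript bases lie there. With SNRNP27 taken off, 29.6, 26.5 and 25.8 CPM were left in siControl and 23.6, 23.3 and 24.2 CPM in siMETTL3, without overlap between the groups and without passing the test (-0.21, SE 0.086, FDR 0.0734). MXI1 (chr10:110207605-110287365, plus strand) had 101.95, 105.1 and 109.8 CPM in siControl and 98.4, 94.3 and 108.1 CPM in siMETTL3, and the groups overlapped (-0.074, SE 0.064, FDR 0.396). An offset for intron length moved MXI1 past the threshold (-0.20, FDR 0.0234).

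**Figure D3:**
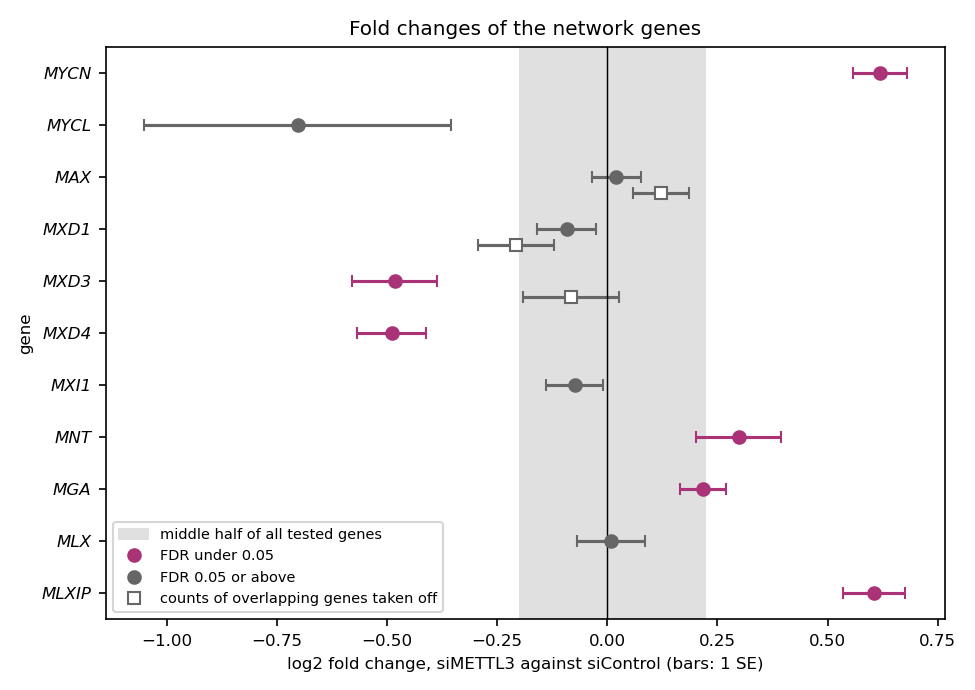
Log2 fold change of siMETTL3 against siControl for the 9 tested members and for MLX and MLXIP, with bars of 1 SE. MXD3, MAX and MXD1 are shown as counted and with the counts of all overlapping genes taken off. MYCN stands highest at 0.62 and MXD4 is at -0.49, while MXD3 moves from -0.48 to -0.082 without PRELID1 and RAB24.

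Levels of different genes were compared as CPM per kb of canonical transcript. Reads over introns were counted too, so this measure raises members with long introns. MAX has a span of 96522 bases for a transcript of 2010, and MNT a span of 17032 for a transcript of 4925. The order of the members below MYCN holds for this measure only and was not set out per kb of span. MYCN stood first in siControl at 1156 ± 51.3 and rose to 1775 ± 64.5 in siMETTL3. MXD3 as counted came next at 142 ± 22.3, but at 15.6 ± 1.69 with its overlaps taken off it ranked 5. MAX had 51.6 ± 0.396 as counted and 24.3 with all FNTB counts taken off. MXI1 had 30.4 ± 1.13 and MGA 22.2 ± 0.405. MNT (11.1 ± 1.54), MXD4 (10.6 ± 0.521) and MXD1 (10.05 ± 0.326) were next and, as counted, did not differ beyond their spread. With all SNRNP27 counts taken off, MXD1 had 4.92 ± 0.369, below MNT and MXD4. In siMETTL3 these 3 were at 13.7 ± 1.19, 7.54 ± 0.465 and 9.43 ± 0.523. MYCL was at 0.440 ± 0.0758 and MYC, with 4 counts over the 3 siControl libraries, at 0.0173.

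The balance of MYCN with its partner and with the repressors was set out in each library, as ratios of levels per kb of transcript. MYCN stood to MAX at 22.5, 23.2 and 21.5 in siControl and at 32.7, 33.5 and 35.6 in siMETTL3. Without FNTB the ratios were 48.6, 48.2 and 45.8 in siControl and 63.1, 69.1 and 69.1 in siMETTL3. MAX is then at its lower limit with respect to FNTB only, as reads over its introns are still counted. MYCN stood to the sum of the 6 repressors at 5.77, 5.04 and 4.603 in siControl and at 9.15, 9.64 and 9.68 in siMETTL3. With the overlapping genes taken off these were 12.4, 12.7 and 11.6 against 18.1, 19.1 and 19.0. Reads were counted over introns too, and per kb of gene span the ratios were much larger, with MYCN to MAX at 435 ± 16.01 and 659 ± 29.7 and MYCN to the repressors at 19.7 ± 1.69 and 35.8 ± 1.23. In each of these the siMETTL3 libraries lay above the siControl libraries, a direction that the rise of MYCN and the choice of members already fix. The ratios concern RNA and not protein.

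On the MLX branch, MLXIP, which encodes the glucose sensor MondoA, had 36.6, 34.9 and 33.3 CPM in siControl and 54.0, 51.6 and 54.1 CPM in siMETTL3. It rose from 34.9 ± 1.69 to 53.3 ± 1.41 CPM (log2 fold change 0.61, SE 0.070, FDR 1.90e-05), about as much as MYCN, and the groups did not overlap. MLX, the common partner of that branch, had 41.1 ± 3.03 and 41.4 ± 1.98 CPM and did not pass the test (0.0078, FDR 0.949). Its count is shared in part with the overlapping gene PSMC3IP. MLXIPL, which encodes ChREBP, was at 0.180 ± 0.132 and 0.222 ± 0.153 CPM and was not tested. The best known targets of MondoA with MLX, TXNIP and ARRDC4, encode arrestin-like proteins that limit glucose uptake. ARRDC4 rose from 12.3 ± 2.06 to 19.2 ± 0.954 CPM (0.64, SE 0.12, FDR 0.00110). TXNIP rose from 119 ± 9.37 to 137 ± 7.58 CPM (0.21, FDR 0.0256), but 1 siMETTL3 library (128.6 CPM) lay just below the highest siControl library (128.8 CPM). The TXNIP call was lost without siControl 1 (FDR 0.0632), siMETTL3 2 (FDR 0.103) or siMETTL3 3 (FDR 0.121).

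Of 20 coactivators and elongation factors of MYC, all tested, 5 rose and 4 fell, near the 18.6% and 19.2% of all tested genes that did, with a median log2 fold change of 0.0089 beside -0.0021 over all tested genes. EP300, a histone acetyltransferase, rose from 134 ± 6.23 to 173 ± 5.98 CPM (0.37, FDR 0.000240). KAT2A, the acetyltransferase GCN5, fell from 85.3 ± 2.11 to 64.7 ± 3.96 CPM (-0.40, FDR 0.000278). ACTL6A, an actin-like subunit of remodelling and acetyltransferase complexes, fell from 105 ± 7.07 to 77.0 ± 3.88 CPM (-0.44, FDR 0.000177), with reads shared in part with MRPL47. The split of this list depended on the correction for gene composition. With the offset for GC content and length, 2 were called higher and 10 lower, and with the offset for intron length 3 and 8. Without siControl 2 or without siMETTL3 1, 3 were higher and 2 lower. Without siMETTL3 2, 3 were higher.

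The corepressors that MXD proteins and MGA recruit were followed next. Of 14 SIN3-HDAC genes, SIN3A rose (98.5 ± 4.53 to 120 ± 2.28 CPM, 0.28, FDR 0.00175) and RBBP7 fell (123 ± 11.9 to 107 ± 2.58 CPM, -0.20, FDR 0.0348), and 12 did not pass the test, against 37.8% of all tested genes called, with a list median of -0.046. The number called lower ranged from 0 to 3 over the alternatives. SIN3A is the scaffold that MXD proteins bind. RBBP7, a histone chaperone whose count is shared in part with TXLNG, lost its call when any 1 library other than siControl 1 was left out (FDR 0.0752 to 0.127), and with upper quartile (FDR 0.0515) or total count scaling (FDR 0.0511). Of 10 partners of MGA in PRC1.6, 3 rose and 2 fell, with a median of 0.043, beside 18.6% and 19.2% of all tested genes. E2F6, a DNA-binding subunit of PRC1.6, rose from 53.5 ± 1.34 to 65.5 ± 2.20 CPM (0.29, FDR 0.00219). TFDP1, its dimer partner, rose from 97.7 ± 4.35 to 115 ± 2.24 CPM (0.24, FDR 0.00499), a call lost with the intron length offset (0.13, FDR 0.0765), which leaves 1 of the 10 called higher. CBX3, a heterochromatin protein, fell from 265 ± 17.4 to 194 ± 12.6 CPM (-0.45, FDR 0.000152), with its count shared in part with HNRNPA2B1. L3MBTL2, an MBT-domain protein of the complex, fell from 78.9 ± 6.03 to 65.3 ± 1.35 CPM (-0.27, FDR 0.00533), with CHADL overlapping it.

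Of 15 genes that act on MYC protein stability, 3 rose and 6 fell, with a median of -0.0018. Of all tested genes 18.6% rose and 19.2% fell, so the number that rose is near the background. SKP2, an F-box protein that both ubiquitinates and coactivates MYC, had 205.8, 214.7 and 216.9 CPM in siControl and 137.9, 136.0 and 137.4 CPM in siMETTL3. It fell the most on this list (-0.63, SE 0.053, FDR 1.33e-06). SET and CIP2A, both inhibitors of the phosphatase PP2A that destabilises MYC, fell as well. SET went from 463 ± 46.6 to 338 ± 4.57 CPM (-0.46, FDR 0.000194) and CIP2A from 114 ± 4.77 to 86.4 ± 4.42 CPM (-0.40, FDR 0.000203). USP7, a deubiquitinase that binds and stabilises N-Myc, rose from 116 ± 11.3 to 145 ± 3.69 CPM (0.33, FDR 0.00220). The number of higher genes on this list varied from 1 (without siControl 2, siMETTL3 1 or siMETTL3 3, and with the intron length offset) to 5 (without siControl 3).

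More of the genes that MYC or MYCN is known to induce fell than rose. Of 28 tested, 15 fell and 3 rose, with a median log2 fold change of -0.26 beside -0.0021 over all tested genes, and 18.6% of all tested genes rose and 19.2% fell. CDK4, the G1 kinase and a direct N-Myc target, fell from 197 ± 7.23 to 129 ± 3.22 CPM (-0.61, FDR 2.56e-06), with TSPAN31 and MARCHF9 overlapping its span. MCM7, a subunit of the replicative helicase, fell from 210 ± 0.313 to 149 ± 6.72 CPM (-0.50, FDR 1.47e-05), with AP4M1 overlapping it. PA2G4, a growth regulator that binds N-Myc, fell from 169 ± 6.64 to 129 ± 3.33 CPM (-0.39, FDR 0.000116). LDHA, the lactate dehydrogenase of glycolysis, rose instead, from 227 ± 9.69 to 304 ± 8.88 CPM (0.42, FDR 6.67e-05). The number of higher genes reached 5 without siControl 3 and under some other settings, and the number of lower genes lay between 14 and 18 throughout.

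Of 9 tested genes that MYC or MYCN is known to repress, 4 rose and 2 fell, beside 18.6% and 19.2% of all tested genes, with a median of 0.23 beside -0.0021. NDRG1, a stress and differentiation gene, had 13.8, 11.5 and 9.03 CPM in siControl and 30.0, 35.1 and 30.0 CPM in siMETTL3, a rise by 1.46 on the log2 scale (SE 0.13, FDR 3.20e-06). NGFR, the neurotrophin receptor p75, rose from 1.82 ± 0.162 to 4.10 ± 0.289 CPM (1.18, FDR 0.000614). CDKN1A, the cyclin-dependent kinase inhibitor p21, fell from 62.1 ± 1.66 to 30.7 ± 1.23 CPM (-1.02, SE 0.068, FDR 1.66e-07). The number of lower genes was 1 without any 1 of siControl 2, siMETTL3 1, siMETTL3 2 and siMETTL3 3.

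**Figure D4:**
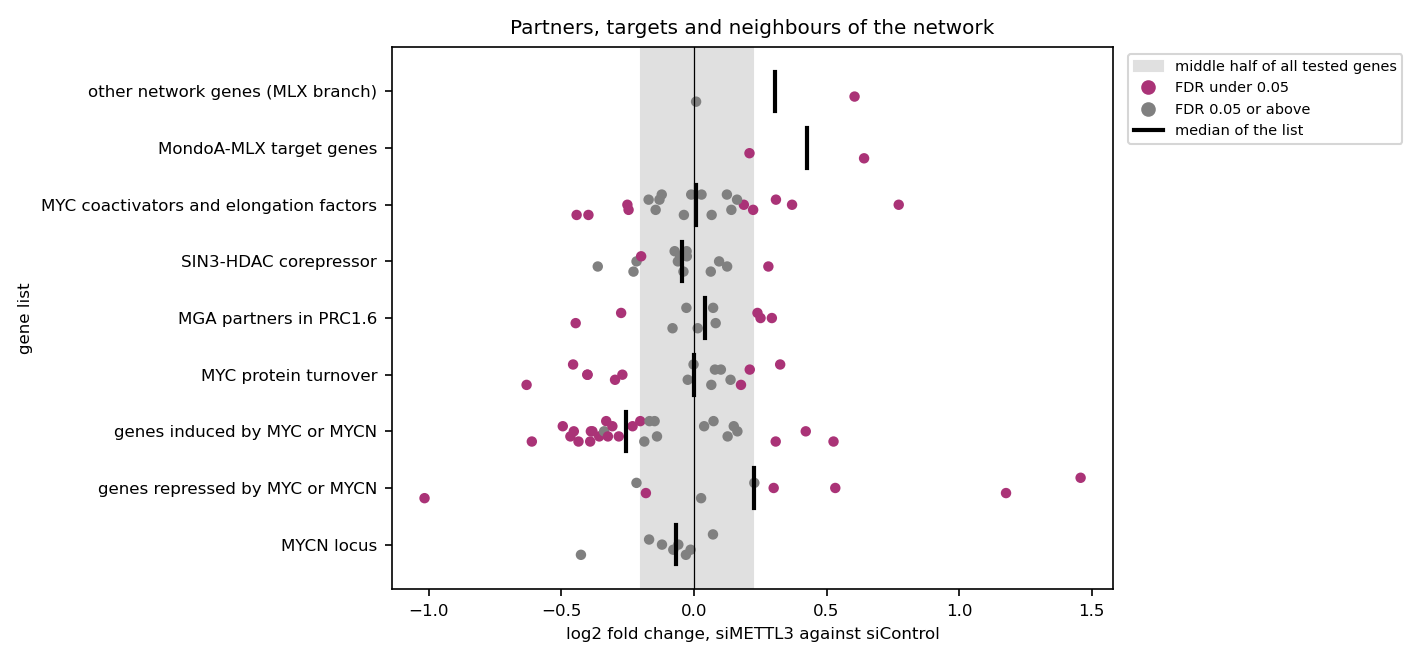
Log2 fold change of siMETTL3 against siControl for each tested gene of the partner and target lists, 1 point per gene and a bar at each list's median. The genes that MYC or MYCN induces have a median of -0.26 and the genes they repress a median of 0.23, while the coactivators (0.0089), the SIN3-HDAC genes (-0.046), the MGA partners (0.043) and the turnover genes (-0.0018) have medians near that of all tested genes.

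The surroundings of MYCN on chromosome 2 were examined because neighbours are often amplified with it. Of 9 genes within 2 Mb, 8 were tested and none was called, beside 37.8% of all tested genes. None of the 8 reached an unadjusted p under 0.05 with edgeR, DESeq2 or limma-voom either. DDX1, an RNA helicase gene 309 kb away that is often co-amplified, had 205.2, 204.5 and 223.6 CPM in siControl and 208.2, 200.1 and 211.6 CPM in siMETTL3 (-0.031, SE 0.057, FDR 0.716). NBAS, 379 kb away, had 312 ± 15.6 and 328 ± 12.8 CPM (0.072, FDR 0.366). FAM49A, 602 kb away on the other side, had 48.1 ± 5.59 and 45.4 ± 2.79 CPM (-0.078, FDR 0.517). In each of these 3 genes the groups overlapped, while they did not in 49.9% of all tested genes. The median over the 8 genes was -0.069. Without siControl 3, GEN1 was called lower (-0.16, FDR 0.0298).

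**Figure D5:**
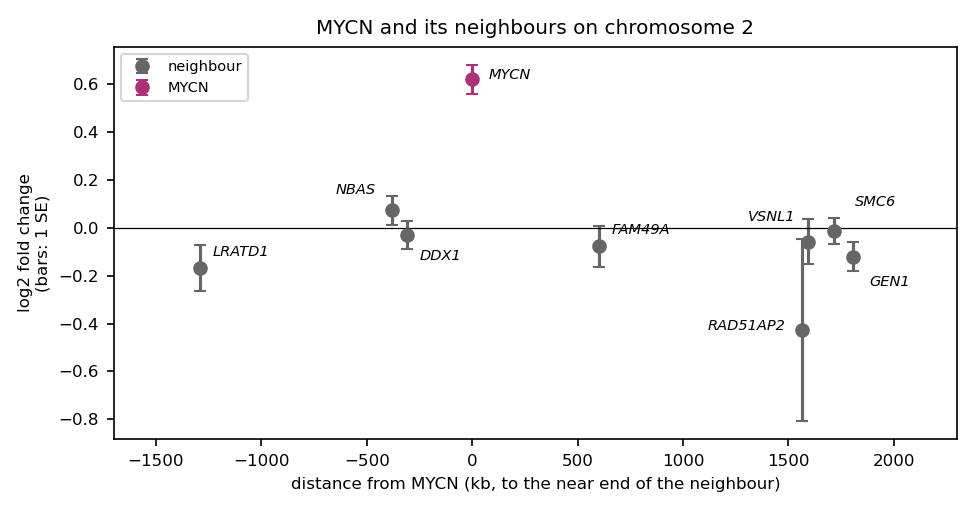
Log2 fold change of MYCN and of the tested genes within 2 Mb of it, against the distance from MYCN in kb, with bars of 1 SE. MYCN is at 0.62, and its neighbours NBAS (0.072), DDX1 (-0.031) and FAM49A (-0.078) lie near 0.

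The genes whose pattern over the 6 libraries was most like that of MYCN were found by the root mean square difference of log2 CPM, each gene centred on its siControl mean, among 11763 genes whose average log2 CPM was 3 or more. Among the 5 most alike were LZIC (0.0189), NDE1 (0.0361), CKMT1B (0.0382) and ARHGEF3 (0.0442). LZIC had 19.6, 19.6 and 18.6 CPM in siControl and 28.2, 30.1 and 29.8 CPM in siMETTL3. ARHGEF3 had 54.8, 54.4 and 53.3 CPM in siControl and 82.3, 83.0 and 81.6 CPM in siMETTL3. The log2 fold changes of these 4 genes lay between 0.60 (ARHGEF3) and 0.63 (CKMT1B), beside 0.62 for MYCN. Choosing genes by their likeness to MYCN already fixes this closeness. CKMT1B has a near-identical copy, CKMT1A, so its count is uncertain. With a minimum average log2 CPM of 5, 2 of the 5 remained among the most alike.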

How the data were processed

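Poly(A) RNA of Kelly cells was sequenced from 3 siControl and 3 siMETTL3 libraries, with groups and replicate numbers from the titles. The deposited values are raw read counts per gene for 19923 protein-coding genes. Per the file headers, the authors counted with featureCounts 1.5.3 over whole gene spans (introns included) of GENCODE release 33 protein-coding genes, without strand, and gave a read over several genes to each of them. The submitters' processing notes also name FastQC 0.11.5, Trimmomatic 0.36, HISAT2 2.1.0 and Subread 1.5.3, with GRCh38 as the build. Gene coordinates follow the tables (1-based). Transcript lengths, exons and overlaps with genes outside the tables came from GENCODE release 44, in which all 18999 spans compared overlapped the gene of the same symbol.

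Genes were filtered with filterByExpr, scaled by TMM and tested with edgeR 4.0.16 in R 4.3.3 (glmQLFit and glmQLFTest, robust, two-sided, all 6 libraries, no covariate), and FDR values are Benjamini-Hochberg values over all 15311 tested genes. The script was tested on simulated data. FDR values under an alternative are named as such. Libraries of one group differed by more than sampling noise (chi-square per degree of freedom between 3.10 and 16.7). The largest values were those of siControl 3, with 16.7 against siControl 1 and 9.10 against siControl 2. siControl 1 and 2 gave 5.72, and the siMETTL3 pairs gave 3.10 to 3.84.

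The members and the gene lists were chosen with earlier results of these data known, and a direction shown by such a list is not independent evidence. PHB1 was found under the symbol PHB. The genes named are METTL3, the 10 members, the MLX branch and the MondoA targets, up to 4 called genes of each other list with the smallest FDR, the genes within 1 Mb of MYCN and the 5 genes most like MYCN. Some genes that this rule gives are not reported here. GEN1 and LRATD1 near MYCN, the individual markers of cell types, and the genes that overlap a member, were named after their values were seen.

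The alternatives were RLE, upper quartile and total count scaling, DESeq2 1.42.0, limma-voom (limma 3.58.1), no filter or a minimum of 10 counts per library, plain dispersions, a replicate block, offsets for GC content and length (without and with the block) and for intron length, and each library left out. Taking off the counts of PRELID1 (from MXD3), or of PRELID1, RAB24, FNTB and SNRNP27, was an alternative chosen after seeing the data.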

Additional observations from a re-analysis of the deposited data

How the results depend on the processing

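For the 44 named genes, 513 of 532 values under other settings and 246 of 264 values with 1 library left out kept their direction and their side of the threshold. The values that changed sign were those of genes that did not pass the test. They were MAX (-0.018 with the GC and length offset, -0.018 with the block added, -0.040 with the intron length offset, -0.0056 to 0.039 with 1 library left out), MLX (-0.045 with the GC and length offset, -0.042 with the block added, -0.026 to 0.071 with 1 library left out, below 0 without siControl 1, siControl 3, siMETTL3 1 or siMETTL3 2), NBAS (-0.011 with the GC and length offset, -0.011 with the block added, -0.0070 with the intron length offset), DDX1 (0.031 with the GC and length offset, 0.031 with the block added, -0.053 to 0.011 with 1 library left out) and FAM49A (-0.16 to 0.0043 with 1 library left out). The cause was not tested.

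Counts of called genes moved as follows, with changes within 1.5-fold left out for the lists. Among the members, 2 and not 3 were higher with the GC and length offset, without and with the block, and with the intron length offset. The same held without siControl 2, siMETTL3 1 or siMETTL3 2. With the intron length offset, or the GC and length offset with the block, 3 members were lower. With the overlapping genes taken off, 1 member was lower. With the GC and length offset, without and with the block, the coactivators gave 2 and 2 higher and 10 and 9 lower, the SIN3-HDAC genes 2 and 2 higher and 3 and 3 lower, and the induced genes 5 and 5 higher. With the intron length offset, the coactivators gave 3 higher and 8 lower, PRC1.6 partners 1 higher, turnover genes 1 higher and repressed genes 1 lower. Induced genes also gave 5 higher with upper quartile scaling, total counts or at least 10 counts, and repressed genes 1 lower with total counts. SIN3-HDAC genes gave 0 lower with upper quartile scaling or total counts and 2 without a filter. Near MYCN, 1 gene was lower with the GC and length offset and the block (LRATD1, -0.22, FDR 0.0464) and 1 with the intron length offset (GEN1, -0.18, FDR 0.0254). With span lengths, MYCN stood to MAX at 435 in siControl and 659 in siMETTL3, and with overlaps taken off at 47.5 and 67.1. With a minimum average log2 CPM of 5, 2 of the 5 genes most like MYCN remained.

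With 1 library left out, the counts ranged from 1 to 2 higher for the MondoA targets, 3 to 7 higher and 2 to 6 lower for the coactivators, 1 to 2 higher and 0 to 2 lower for the SIN3-HDAC genes, 1 to 5 higher for the turnover genes, 2 to 5 higher for the induced genes, 1 to 2 lower for the repressed genes and 0 to 1 lower near MYCN. Over all tested genes, 5786 were called, and between 4210 and 6574 over all alternatives. The share of calls that were higher was 49.2%, against 37.7% (2270 of 6015) with the intron length offset, which moved the median of all genes to -0.054.

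The replicate numbers did not meet the rule for pairing. Deviations from the group means correlated at 0.052, 0.059 and 0.103 for libraries of the same number and between -0.097 and 0.048 otherwise, and each library correlated best with its own number, a hint from the data. The replicate block gave 6166 calls, 5733 of them among the 5786, and 2 lower SIN3-HDAC genes, with 64 other results on the same side. Depth limits MYC and MLXIPL, which were too low to test, and MYCL.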
